A study of Mus musculus with 6 samples.

Results

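The dual-specificity phosphatases (DUSPs) described here are 10 genes, Dusp1, Dusp2, Dusp4, Dusp5, Dusp6, Dusp7, Dusp8, Dusp10, Dusp14, and Dusp16. They were found as the noncontrol spots of the arrays that carry 1 of these gene names, and all 10 genes were found, with 14 probes among 55681. Over the whole array, 34787 gene names were tested. Total RNA came from bone marrow-derived macrophages (BMDMs) of wild type female mice of strain C57/B6, aged 6 to 8 weeks according to the sample labels, and the methods of the study give an older range and write the strain as C57BL6/J. The cells had been differentiated for 7 days in medium conditioned by L929 cells. Untreated cells were compared with cells stimulated for 4 h with lipopolysaccharide (LPS), the bacterial ligand of TLR4, and with cells that received 10 μM HBX41,108, a small molecule inhibitor of the deubiquitinase USP7, for 30 min ahead of the same stimulation (LPS+USP7i). The LPS dose is 100 ng/ml in the description of the series and 100 ng/μl in the treatment protocol of the labels. Whether the inhibitor's solvent was added to cells stimulated with LPS alone is not given in the sources used here, and no group received the inhibitor without LPS. Each of the 3 groups had 2 arrays from independent experiments, so 6 arrays limit the precision of all values below.

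MAP kinase phosphatases remove phosphate from both the threonine and the tyrosine of the activation loop of ERK, JNK, and p38, and so switch these kinases off. Many of their genes are themselves switched on by MAP kinase signaling, which makes them feedback regulators, and in macrophages DUSP1 is known to limit p38 and JNK activity and cytokine production after TLR4 is engaged. The family is usually divided into inducible enzymes of the nucleus, cytoplasmic enzymes that prefer ERK, enzymes that prefer JNK and p38, and small atypical members without the MAP kinase-binding domain.

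The 6 samples were hybridized to 1-color arrays of 1 slide, which was scanned 1 time. On the slide, column 1 held the arrays of replicate 1 and column 2 those of replicate 2. Rows 1, 2, and 4 each held a single group, so slide row and treatment cannot be told apart. Values are log2 intensities after quantile normalization, which gives all arrays the same distribution. The number of spots well above background was 27467 and 27126 in untreated cells, 25223 and 25002 after LPS, and 26415 and 25290 in LPS+USP7i, of 59305 noncontrol spots each, and 0 spots were saturated. Of the 14 DUSP probes, 9 were well above background on all 6 arrays and 5 were not on 1 or more arrays. No probe was removed for low signal, so all 14 were tested. If neither array of a group showed a probe well above background, its ratio to a brighter group is given as a bound ("at least"), for which the dim group is set at the lowest value well above background on each array or at the probe's own value, whichever is higher. Such a bound holds only for the processing it was computed with. Where the probe's own values are the higher ones, the bound equals the measured ratio and is not a lower confidence limit.

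The labeled cell type was checked against its markers. All 9 macrophage markers measured, among them Csf1r, Cd68, Lyz2, and Adgre1, were well above background on all 6 arrays. The summed linear signal of the 9 markers was 735400 and 729000 in untreated cells, 727400 and 754100 after LPS, and 632200 and 593700 in LPS+USP7i. The brightest probe was that of Csf1r on 5 arrays and that of Cd68 on LPS+USP7i replicate 2, where they were nearly equal, and brightness does not rank abundance between probes. Among the 9, Cd14, the LPS coreceptor, rose by 1.69 on the log2 scale with LPS (limma, adjusted p = 0.00518) and fell by 1.31 with the inhibitor compared with LPS alone (adjusted p = 0.0184). Itgam fell by 0.66 with LPS (adjusted p = 0.0233), and Fcgr1 fell by 1.60 with the inhibitor (adjusted p = 0.0317). Of 5 fibroblast markers, 0 to 2 were well above background on an array, with a summed signal between 60.05 and 109.8 and Dcn the brightest on 5 arrays, and Col1a1, Col3a1, and Pdgfra were not well above background on any. Of 4 mast cell markers, 1 or 2 were (sum 40.76 to 177.2, Kit the brightest, Mcpt4 and Fcer1a not well above background on any array), and of 5 erythroid markers, 0 to 2 (sum 44.8 to 64.2, Hba-a1 the brightest on 3 arrays, Hbb-b1 not well above background on any). Among 6 T cell markers, 3 or 4 were well above background, Cd3g and Cd8a on no array. Their sum came to 2285 and 2108 without treatment, to 4270 and 4420 after LPS, when Lck was the brightest, and to 2700 and 2188 in LPS+USP7i. Lck rose by 4.23 with LPS (adjusted p = 0.00331) and fell by 2.47 with the inhibitor (adjusted p = 0.0161), while Cd3e and Cd4 passed in neither comparison (adjusted p from 0.519 to 0.9997). Among 5 dendritic cell markers, 1 was well above background on each untreated array and 2 on each of the other arrays, with Itgax, which macrophages also express, the brightest and Flt3, Xcr1, and Cd209a not well above background on any array. The dendritic cell sum was 3564 and 7577 in untreated cells, 3215 and 6133 after LPS, and 4521 and 6158 in LPS+USP7i. Of 8 neutrophil markers, 6 to 8 were well above background, with a sum of 5247 and 6960 in untreated cells, 5870 and 11800 after LPS, and 6205 and 9795 in LPS+USP7i, and Elane was the brightest on 5 arrays. In every group, Ly6g and Mpo were higher on replicate 1 and the other neutrophil markers on replicate 2. S100a9 read 7.68 and 10.72 in untreated cells, 9.54 and 12.38 after LPS, and 8.35 and 11.57 in LPS+USP7i. Ngp and Ltf were the neutrophil markers not well above background on some arrays. Of 5 B cell markers, 2 to 5 were, with Cd79b the brightest and a sum of 1057 and 668.5 in untreated cells, 1153 and 532.7 after LPS, and 714.9 and 314.5 in LPS+USP7i. Zbtb46, a dendritic cell marker, was at least 5.65-fold higher with LPS (adjusted p = 0.00435), and Pax5, a B cell marker, was at least 1.39-fold higher with the inhibitor than with LPS (adjusted p = 0.0245). Epor, an erythroid marker, was called lower with LPS (adjusted p = 0.0396). It was not well above background on either LPS array, and no fall remained with those arrays set at their lowest value well above background. In LPS+USP7i compared with untreated cells, Lck, Zbtb46, and Pax5 were higher and Fcgr1 was lower (adjusted p = 0.0171, 0.00806, 0.0105, and 0.0374). The part of other cells in the DUSP values was not tested. In RNA from a whole culture, fewer cells that express a gene and less RNA of it per cell cannot be told apart.

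LPS changed the DUSP genes in both directions. Dusp2, Dusp14, and Dusp16 rose and Dusp6 and Dusp7 fell, while Dusp1, Dusp4, Dusp5, Dusp8, and Dusp10 did not pass the threshold after 4 h. Counted as probes, 4 of 14 were called higher and 3 lower (adjusted p under 0.05, limma), where 7.09% and 10.7% of all probes were called higher and lower. In a fit without dim probes the same DUSP probes were called, and 4468 of all 25084 probes tested were higher and 6906 lower. Counted as genes, each represented by its brightest probe, 7.98% and 12.8% of all names were called higher and lower. The median difference of the 14 probes was 0.0975 on the log2 scale and that of all probes was 0.0045.

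The inhibitor, too, was followed by differences in both directions. Relative to LPS alone, Dusp1, Dusp4, Dusp6, Dusp7, and Dusp10 rose in LPS+USP7i and Dusp2 and Dusp16 fell, while Dusp5, Dusp8, and Dusp14 did not pass. Of the 14 probes, 6 were called higher and 3 lower, against 4.66% and 3.79% of all probes (5.52% and 4.27% of gene names). In a fit without dim probes, 7 and 3 were called, where 3772 of all 25084 probes tested were higher and 3287 lower. The median difference of the 14 probes was 1.31 and that of all probes was -0.0010. The LPS arrays are shared with the comparison of LPS and untreated cells, and the untreated arrays are shared between both comparisons with untreated cells. Compared with untreated cells, 8 probes were called higher and 1 lower in LPS+USP7i, against 5.65% and 7.34% of all probes (6.16% and 8.71% of gene names), with a median of 1.45 for the 14 probes and 3e-04 for all. Dusp1, Dusp2, Dusp4, Dusp5, Dusp10, Dusp14, and Dusp16 were the genes called higher and Dusp6 the gene called lower. In a fit without dim probes, 8 DUSP probes were higher and 3 lower in this comparison, where 3995 of all 25084 probes tested were higher and 5262 lower.

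The calls between LPS+USP7i and LPS rest on the spread estimated from all 3 groups. In a limma fit of these 2 groups alone, 0 of 55680 probes were called, with a smallest adjusted p of 0.0561, while 6051 probes were higher and 5206 lower at an unadjusted p under 0.05, and of the DUSP probes 10 and 3. A fit without 1 array of the group not compared has the same degrees of freedom as this fit and repeats it, so it is no further check, and a fit without 1 of the compared arrays has fewer than the fit of all 6. The number called higher was 1 without LPS replicate 1 (Dusp10) and 0 without LPS replicate 2, where 8 passed unadjusted, and the number called lower was 2 in both cases (Dusp2 and probe 2 of Dusp16). It was 3 without LPS+USP7i replicate 1 (Dusp1, Dusp4, and probe 2 of Dusp7) and 4 without LPS+USP7i replicate 2 (these and Dusp10), with 3 lower in both. Compared with untreated cells, fewer than the 8 probes were called higher without untreated replicate 1 or without untreated replicate 2 (Dusp2, Dusp4, and Dusp14). Over the whole array, too, fewer probes were called in each fit without 1 array than with all 6 arrays, higher and lower counted together.

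**Figure D1:**
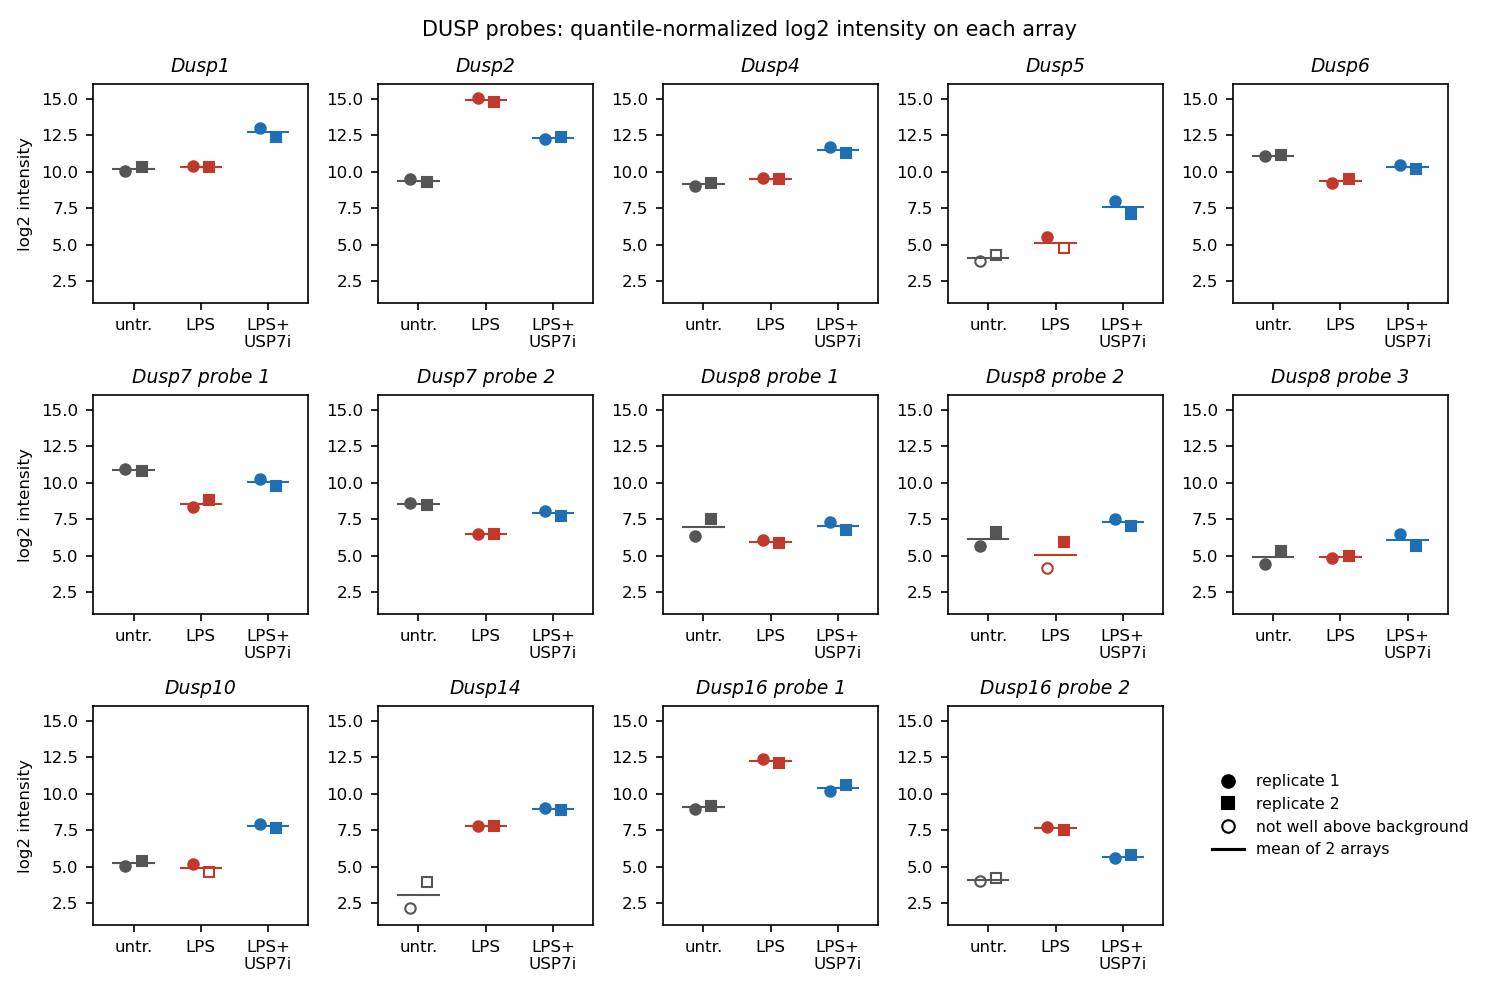
Quantile-normalized log2 intensity of each DUSP probe on each array (vertical axis, same range in all panels) for untreated, LPS, and LPS+USP7i cells. Circles are replicate 1, squares replicate 2, lines the mean of 2 arrays, and open symbols arrays on which the probe was not well above background; Dusp2 lies at 15.06 and 14.82 with LPS and at 12.27 and 12.40 with LPS+USP7i.

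Dusp1 (MKP-1) encodes the nuclear phosphatase best known from LPS-stimulated macrophages. Its probe read 10.05 and 10.34 in untreated cells, 10.38 and 10.34 after LPS, and 13.02 and 12.41 in LPS+USP7i. Both inhibitor-treated arrays were above the other 4, which lay within the spread of the untreated pair or next to it. The difference between LPS and untreated cells was 0.17 (standard error 0.24, adjusted p = 0.777), with a 95% confidence interval from -0.51 to 0.84. In LPS+USP7i, Dusp1 rose by 2.36 over LPS (standard error 0.24, adjusted p = 0.0212), a 5.12-fold difference. Like all other probes of the array, Dusp1 was not called in a fit of these 2 groups alone. It was 2.52 above untreated cells (adjusted p = 0.0119), which did not pass without untreated replicate 1 (adjusted p = 0.0673) or 2 (0.0625). The position that the files give for this probe, on mouse genome build mm9, covers only 11 of its bases (chromosome 17 from 26642526 to 26642536).

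Dusp2 (PAC-1), a nuclear phosphatase of immune cells, changed the most with LPS among the members measured above background in both groups. It read 9.49 and 9.32 in untreated cells, 15.06 and 14.82 after LPS, and 12.27 and 12.40 in LPS+USP7i (probe on chromosome 2 from 127163930 to 127163989, mm9). The 3 groups were separate, with the inhibitor-treated arrays between the others. LPS raised Dusp2 by 5.53 (standard error 0.13, adjusted p = 0.00227), which is 46.2-fold. The difference between LPS+USP7i and LPS was -2.60 with the same standard error, or 6.08-fold lower (adjusted p = 0.0105). Dusp2 was 2.93 above untreated cells in LPS+USP7i (adjusted p = 0.00499).

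Dusp4 (MKP-2), a nuclear relative of Dusp1, followed the same order as Dusp1. The probe (chromosome 8 from 35882045 to 35882104, mm9) read 9.02 and 9.26 in untreated cells, 9.56 and 9.52 after LPS, and 11.70 and 11.31 in LPS+USP7i. The LPS arrays lay above the untreated arrays by little more than the spread of the untreated pair, and the inhibitor-treated arrays lay well above both. The difference with LPS, 0.40 with a standard error of 0.17, did not pass (adjusted p = 0.242). Dusp4 rose by 1.96 with the inhibitor over LPS (standard error 0.17, adjusted p = 0.0167), a 3.90-fold difference, and was 2.36 above untreated cells (adjusted p = 0.00777). The rise over LPS was not called in a fit of LPS+USP7i and LPS alone.

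Dusp5 encodes a nuclear phosphatase that acts on ERK. Its probe (chromosome 19 from 53615682 to 53615741, mm9) was not well above background in untreated cells, was on 1 of 2 LPS arrays, and was on both arrays of LPS+USP7i. The values were 3.87 and 4.28, 5.51 and 4.74, and 8.01 and 7.12 in that order, so the groups did not overlap but the arrays of the LPS pair (SD 0.54) and of the LPS+USP7i pair (SD 0.63) were far apart. Dusp5 was at least 11.2-fold higher in LPS+USP7i than in untreated cells (adjusted p = 0.0192), a bound that was 5.64-fold with the deposited log2 values and 2.71-fold with normexp background correction. This call was lost without untreated replicate 1 (adjusted p = 0.0978), untreated replicate 2 (0.0869), or LPS+USP7i replicate 1 (0.0570). Between LPS and untreated cells Dusp5 did not pass (adjusted p = 0.230), and neither did the difference of 2.44 between LPS+USP7i and LPS (standard error 0.44, adjusted p = 0.0540). The latter passed with 75th percentile scaling (adjusted p = 0.0456), normexp correction (0.0199), the deposited log2 values (0.0266), and a fit without dim probes (0.0113), within a range of 0.0113 to 0.158 over 12 alternatives, while with normexp correction the difference was 1.22.

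Promoter sequences were looked up because genes of this class answer MAP kinase signaling through known elements. RefSeq promoters of 300 bases, 250 before and 50 after the start site, were given for 9 of the 10 members (assembly GRCm38.p6), all but Dusp4. They were searched on both strands for the CRE (TGACGTCA), AP-1 (TGANTCA), the NF-κB consensus, and the CArG box, the element bound by serum response factor. Of 32851 promoters, 1.79% held the CRE, 7.81% AP-1, 4.51% the NF-κB consensus, and 1.63% the CArG box. Among the 9 member promoters, 2 held a CRE, 1 held the CArG box, and 0 held AP-1 or the NF-κB consensus in these 300 bases. Dusp8 held the CRE at -107 to -100 and at -63 to -56 from the start site, and its probes passed in no comparison. Dusp2, Dusp10, Dusp14, and Dusp16 held no match and were also called higher in LPS+USP7i than in untreated cells. A link between matches and differences was not tested. The 250 bases before the start site follow, 5′ to 3′ on the strand of the gene, for Dusp1 and Dusp5, which hold a match and were higher in LPS+USP7i than in untreated cells, and for Dusp2, which held none and had the large LPS difference, a choice made after the matches were seen. Capitals mark the CRE of Dusp1, at -143 to -136, and the adjoining CArG boxes of Dusp5, at -82 to -73 and -72 to -63, which do not overlap. A match is a match of letters only.
Dusp1, chr17:26508473-26508722, minus strand: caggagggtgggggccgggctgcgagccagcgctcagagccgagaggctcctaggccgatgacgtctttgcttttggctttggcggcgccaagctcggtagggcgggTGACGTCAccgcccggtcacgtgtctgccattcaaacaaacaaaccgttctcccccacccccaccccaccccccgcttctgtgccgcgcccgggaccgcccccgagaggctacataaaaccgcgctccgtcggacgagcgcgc
Dusp5, chr19:53528895-53529144, plus strand: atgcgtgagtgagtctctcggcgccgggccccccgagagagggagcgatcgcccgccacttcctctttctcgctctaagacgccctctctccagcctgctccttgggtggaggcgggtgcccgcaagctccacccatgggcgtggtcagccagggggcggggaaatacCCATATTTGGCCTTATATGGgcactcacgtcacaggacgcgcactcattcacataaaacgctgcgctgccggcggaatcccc
Dusp2, chr2:127335909-127336158, plus strand: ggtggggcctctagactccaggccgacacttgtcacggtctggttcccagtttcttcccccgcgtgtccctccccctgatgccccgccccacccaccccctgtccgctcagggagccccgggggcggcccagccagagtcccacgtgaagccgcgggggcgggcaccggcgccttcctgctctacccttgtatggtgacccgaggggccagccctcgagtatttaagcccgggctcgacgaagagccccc

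Dusp6 (MKP-3), the cytoplasmic phosphatase of ERK, went the other way with LPS. It read 11.12 and 11.13 in untreated cells, 9.25 and 9.50 after LPS, and 10.46 and 10.18 in LPS+USP7i (probe on chromosome 10 from 98729985 to 98730044, mm9). The LPS arrays were the lowest, the untreated arrays the highest, and the inhibitor-treated arrays lay between them with no overlap. Dusp6 fell by 1.75 with LPS (standard error 0.14, adjusted p = 0.00629), rose by 0.95 with the inhibitor over LPS (adjusted p = 0.0389), and in LPS+USP7i differed from untreated cells by -0.80 (adjusted p = 0.0411). The rise over LPS was 1.22 between the arrays of slide column 1 and 0.68 between those of column 2. With a replicate block in the limma fit, neither the rise nor the difference from untreated cells passed (adjusted p = 0.0758 and 0.0793). The deposited log2 values gave an adjusted p of 0.0603 for the rise and 0.0520 for the difference from untreated cells, over ranges of 0.00747 to 0.124 and 0.00726 to 0.167. Neither passed when any 1 of the 4 arrays compared was left out, with an adjusted p from 0.0516 (without LPS+USP7i replicate 2) to 0.124 (without LPS replicate 1) for the rise and from 0.0583 (without LPS+USP7i replicate 1) to 0.167 (without untreated replicate 2) for the other.

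Dusp7, the closest relative of Dusp6 and also a cytoplasmic ERK phosphatase, was measured by a pair of probes that share part of their sequence (chromosome 9 from 106277985 to 106278044 and from 106277943 to 106278000, mm9). Probe 1 read 10.96 and 10.85 in untreated cells, 8.35 and 8.82 after LPS, and 10.29 and 9.80 in LPS+USP7i. Probe 2 read 8.65 and 8.51, 6.49 and 6.48, and 8.10 and 7.71 in the same order. Both probes put the groups in the order seen for Dusp6, with no overlap. The differences between LPS and untreated cells were -2.32 (adjusted p = 0.0100) and -2.10 (adjusted p = 0.00529). With the inhibitor they were 1.46 and 1.43 above LPS (adjusted p = 0.0476 and 0.0224). With a replicate block in the limma fit, this rise of probe 1 did not pass (adjusted p = 0.0881). The differences from untreated cells, -0.86 and -0.67, did not pass (adjusted p = 0.119 and 0.0733), although both passed with normexp correction (0.0278 and 0.0363) and in a fit without dim probes (0.0396 and 0.0309), and that of probe 2 also with 75th percentile scaling (0.0309) and without LPS+USP7i replicate 1 (0.0354), over ranges of 0.0278 to 0.347 and 0.0309 to 0.257. Without untreated replicate 1 or 2, the fall of probe 1 with LPS did not pass (adjusted p = 0.0619 and 0.0615), and its rise with the inhibitor did not pass without any 1 of the 4 arrays compared (adjusted p from 0.0622 without LPS+USP7i replicate 2 to 0.141 without LPS replicate 1).

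Dusp8 belongs to the phosphatases that prefer JNK and p38, and its 3 probes showed no difference past the threshold in any comparison. Probe 1 (chromosome 7 from 149267032 to 149267091, mm9) lies on the strand opposite to the gene, while probes 2 and 3 lie on the same strand (chromosome 7 from 149267534 to 149267593 and from 149265961 to 149266020). Probe 1 read 6.37 and 7.52 in untreated cells, 6.07 and 5.86 after LPS, and 7.30 and 6.74 in LPS+USP7i. Probe 2 read 5.67 and 6.65 in untreated cells, 4.17 and 5.91 with LPS, of which the first was not well above background, and 7.52 and 7.07 with LPS+USP7i. Probe 3 read 4.43 and 5.35 in untreated cells, had a mean of 4.92 with an SD of 0.12 over the LPS pair, and read 6.47 and 5.65 with LPS+USP7i. For probes 1 and 2 the replicates of 1 group lay as far apart as the groups or nearly so, and for probes 2 and 3 the inhibitor-treated arrays were the highest. The differences between LPS and untreated cells were -0.98, -1.12, and 0.03 for probes 1 to 3 (adjusted p = 0.284, 0.459, and 0.9997). Differences between LPS+USP7i and LPS were 1.06, 2.25, and 1.14 for probes 1 to 3 (adjusted p = 0.303, 0.172, and 0.246), and the second passed only with normexp correction, where it was 1.03 (adjusted p = 0.0439, range 0.0439 to 0.423).

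Dusp10 (MKP-5), which acts on JNK and p38, was higher with the inhibitor than with LPS alone. Its probe (chromosome 1 from 185898608 to 185898667, mm9) read 5.08 and 5.42 in untreated cells, 5.16 and 4.65 with LPS, the latter not well above background, and 7.97 and 7.64 with LPS+USP7i. Untreated and LPS arrays overlapped, and the inhibitor-treated arrays were apart from both. The difference with LPS was -0.35 (standard error 0.25, adjusted p = 0.496). With the inhibitor, Dusp10 rose by 2.90 over LPS (standard error 0.25, adjusted p = 0.0166), a 7.44-fold difference, and was 2.55 above untreated cells (adjusted p = 0.0122), which did not pass without untreated replicate 1 (0.0661) or 2 (0.0607). With normexp correction the differences were 1.42 and 1.34. The rise over LPS was not called in a fit of LPS+USP7i and LPS alone.

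Dusp16 (MKP-7), a phosphatase of JNK, showed the pattern of Dusp2 on both of its probes. Probe 1 (chromosome 6 from 134665783 to 134665842, mm9) read 8.99 and 9.15 in untreated cells, 12.36 and 12.14 after LPS, and 10.19 and 10.61 in LPS+USP7i. Probe 2 (chromosome 6 from 134668003 to 134668062, mm9) read 4.04 and 4.21, not well above background, then 7.76 and 7.52, and 5.57 and 5.80. On both probes the inhibitor-treated arrays lay between the untreated and the LPS arrays. LPS raised probe 1 by 3.18 (standard error 0.18, adjusted p = 0.00399) and probe 2 at least 11.4-fold (adjusted p = 0.00289), a bound of 5.91-fold with the deposited log2 values and 3.06-fold with normexp correction. With the inhibitor, probe 1 fell by 1.85 (adjusted p = 0.0201) and probe 2 fell by 1.95, or by 1.06 with normexp correction (adjusted p = 0.0142 and 0.000943, range 0.000943 to 0.0590). Probe 1 remained 1.33 above untreated cells (adjusted p = 0.0233). Probe 2 remained 2.95-fold above them, again the measured ratio (log2 interval from 1.17 to 1.96, adjusted p = 0.0110), or 1.47-fold with normexp correction. Neither of these last calls held without untreated replicate 1 (adjusted p = 0.114 and 0.0633) or 2 (0.0987 and 0.0590), and that of probe 1 was also lost in a fit of the 2 groups alone (0.0596) and without LPS+USP7i replicate 2 (0.0508).

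Dusp14 (MKP-6), a small atypical phosphatase, was not well above background in untreated cells, where its probe (chromosome 11 from 83861916 to 83861975, mm9) read 2.18 and 3.94. After LPS it read 7.77 and 7.80, in LPS+USP7i it read 9.04 and 8.93, and both inhibitor-treated arrays were above both LPS arrays. LPS raised it at least 14.7-fold (adjusted p = 0.0163), a call lost without LPS replicate 1 (adjusted p = 0.0831) or 2 (0.0772), and it was at least 33.6-fold above untreated cells in LPS+USP7i (adjusted p = 0.0139), a call lost without LPS+USP7i replicate 1 (0.0621) or 2 (0.0600). With the deposited log2 values these bounds were 8.26-fold and 18.9-fold, and with normexp correction 3.56-fold and 7.17-fold. The difference of 1.20 between LPS+USP7i and LPS did not pass (standard error 0.62, adjusted p = 0.405), and its spread was estimated with the untreated pair included, which had an SD of 1.25. It passed with normexp correction (adjusted p = 0.00132) and with the deposited log2 values (0.0212), within a range of 0.00132 to 0.643.

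**Figure D2:**
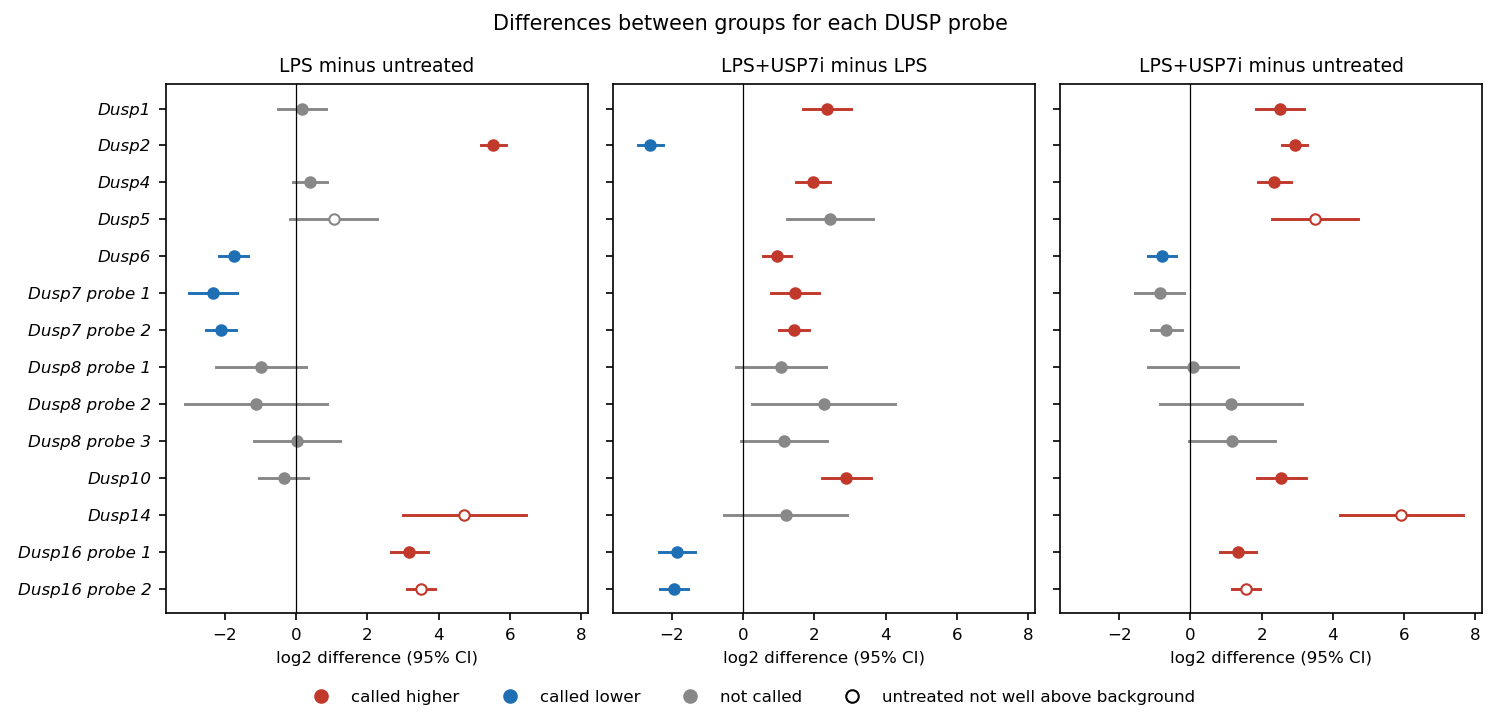
Log2 difference of each DUSP probe (points) with its 95% confidence interval (lines) in the 3 comparisons, red where called higher, blue where called lower, gray where not called; open points mark probes not well above background in untreated cells. Dusp2 lies at 5.53 for LPS minus untreated, at -2.60 for LPS+USP7i minus LPS, and at 2.93 for LPS+USP7i minus untreated.

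The direction of all DUSP differences that passed was the same when arrays were scaled to their 75th percentile instead of being quantile-normalized. That scaling moved the median of all probes by 0.51 in LPS minus untreated and by 0.55 in LPS+USP7i minus untreated, and by 0.0023 between LPS+USP7i and LPS. The share of higher calls among all calls was then 79.3% for LPS minus untreated, 82.7% for LPS+USP7i minus untreated, and 54.4% for LPS+USP7i minus LPS. After quantile normalization these shares were 39.9%, 43.5%, and 55.2%. DUSP differences from untreated cells are thus relative to the other genes on the array.

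Genes with the most similar profile over the 6 arrays were sought for each member measured well above background throughout, as the smallest root mean square distance after subtraction of the untreated mean, among 11649 genes. The nearest to Dusp2 were Icam1 (distance 0.27), Gbp7 (0.29), and Hcar2 (0.34), and among the nearest to Dusp16 were Cers6 (0.12) and Lacc1 (0.13). For Dusp6 they were Tchp (0.06), Slc5a3 (0.07), and Slc66a2 (0.08), and for Dusp7 Tspan14 (0.12), Chst12 (0.13), and Fblim1 (0.13). Nearest to Dusp1 were Gm13271 (0.19), 1810013L24Rik (0.24), and Mir22hg (0.24), and 1810013L24Rik (0.16) was also near Dusp4, beside Rps23rg1 (0.13) and Smim3 (0.17). For Dusp8, by its brightest probe, which is the one on the opposite strand, they were Dot1l (0.28), Tmem189 (0.30), and Fam102a (0.30).

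The other genes of the MAP kinase pathway were taken as 8 lists, 91 genes in all, each gene by its brightest probe. LPS raised 18 and lowered 21 of the 91, where 7.98% and 12.8% of all gene names were higher and lower, with a median difference of -0.08 on the log2 scale. Of the 18328 names left in a fit without dim probes, 17.2% were higher and 28.3% lower with LPS. In LPS+USP7i compared with LPS, 15 were higher and 3 lower (median 0.15), against 5.52% and 4.27% of all names, and compared with untreated cells, 16 were higher and 13 lower (median 0.0045), against 6.16% and 8.71%. Without dim probes, 15.4% and 21.4% of the names tested were higher and lower in LPS+USP7i than in untreated cells. The total of 18 called between LPS+USP7i and LPS became 33 with normexp correction, which called 8.28% of all gene names higher and 6.83% lower. Without dim probes the total became 30, where 15.1% and 12.9% of the names tested were called higher and lower. The total became 0 in limma, with 40 at an unadjusted p under 0.05, in a fit of these 2 groups alone, where 0 probes of the array passed. This fit and those without an array were added for the lists after the data had been seen. Without LPS replicate 1 or 2 it was 1 (Fosl1), and without LPS+USP7i replicate 1 it was 5 (Fosl1, Mapk7, Rps6ka5, Jun, and Dusp27). The 39 genes called with LPS became fewer without untreated replicate 1 or 2 or without LPS replicate 1. In every fit without 1 array, the share of all gene names called was also lower than with all 6 arrays, in each comparison. The 29 compared with untreated cells became 50 (34 higher) with 75th percentile scaling, which called 35.0% of all gene names higher and 9.64% lower, and 9 and 8 without untreated replicates 1 and 2, and 18 without LPS+USP7i replicate 2. The LPS calls of Dusp3, Ppm1d, Ptpn7, Mapk7, Map2k1, Map2k4, Map2k5, Map3k1, Map3k4, Map3k8, Mapkapk2, Mknk2, Rps6ka1, Spry3, Errfi1, Elk3, and Creb1 passed whichever 1 array was left out, as did the differences of Ppm1d, Map3k1, Mapkapk2, Rps6ka1, Errfi1, and Fosl1 between LPS+USP7i and untreated cells. Among the calls that did not pass with the deposited log2 values were those of Mapk13, Mapk3, Map3k5, Rps6ka4, and Spry1 with LPS and those of Ppm1d, Mapkapk5, Rps6ka1, Rps6ka4, Spry3, and Atf3 with the inhibitor. Names below that lie outside the 3 largest differences of a list were chosen after their values were seen.

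Of 14 other DUSP genes, 1 was higher with LPS (Dusp11, an RNA phosphatase, 1.59) and 2 were lower, Dusp3 (-1.69) and Dusp9 (adjusted p = 0.0159). Dusp3, a small phosphatase of ERK and JNK, read 14.33 and 14.49 in untreated cells, 12.69 and 12.75 after LPS, and 13.75 and 13.48 in LPS+USP7i. The inhibitor-treated arrays lay between the others, and Dusp3 rose by 0.89 with the inhibitor over LPS (adjusted p = 0.0332). Dusp13 was the other gene of the list higher with the inhibitor, by 2.63 (adjusted p = 0.0237), and 0 were lower in limma, with 1 lower at an unadjusted p under 0.05. Of 8 phosphatases of other families, LPS raised Ppm1b (1.13) and lowered Ppm1d (-1.40) and Ptpn7 (-2.25), the hematopoietic tyrosine phosphatase of ERK and p38. With the inhibitor Ppm1d was higher by 0.50 (adjusted p = 0.0244).

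Among 10 MAP kinases, 1 rose with LPS (Mapk13, a p38 kinase, 0.67), and Mapk3 (-0.49) and Mapk7 (-2.04, adjusted p = 0.00697) were among those that fell. Mapk3 encodes ERK1, and its difference was 0.04 and did not pass with 75th percentile scaling. Mapk7 encodes ERK5. Mapk7 was the 1 gene of this list higher with the inhibitor, by 1.32 (adjusted p = 0.0318). Of 7 MAP kinase kinases, LPS raised Map2k4 (2.12) and Map2k1 (adjusted p = 0.00629) and lowered Map2k6 (-2.41) and Map2k5 (-1.02). With the inhibitor 0 were called in limma, and 2 were higher and 2 lower at an unadjusted p under 0.05. Of 12 MAP3 kinases, 3 rose with LPS (Map3k8, Map3k6, and Map3k5) and 4 fell (Map3k1, Map3k4, Map3k2, and Map3k3). Map3k8 (Tpl2), which activates the ERK pathway below TLR4, rose by 2.72 (adjusted p = 0.00426) and Map3k1 fell by 2.87 (adjusted p = 0.00289). With the inhibitor Map3k1 was higher by 1.04 (adjusted p = 0.0231).

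Of 10 kinases activated by MAP kinases, LPS raised 4 (Mapkapk2, Rps6ka5, Rps6ka3, and Rps6ka4) and lowered 2 (Mknk2 and Rps6ka1). With the inhibitor 4 were higher (Mknk2, Rps6ka2, Mapkapk5, and Rps6ka1) and 3 lower (Rps6ka5, Mapkapk2, and Rps6ka4). Mapkapk2 (MK2), the p38-activated kinase that stabilizes cytokine mRNA, read 12.44 and 12.23 in untreated cells, 15.07 and 14.97 after LPS, and 13.67 and 13.77 in LPS+USP7i. Its values with the inhibitor were between those of the other groups, with a rise of 2.68 with LPS (adjusted p = 0.00281) and a difference of -1.30 with the inhibitor (adjusted p = 0.0151). Mknk2, a kinase of the translation factor eIF4E, read 14.85 and 15.05, 12.37 and 12.72, and 14.98 and 14.60. The inhibitor-treated arrays were near the untreated ones, with differences of -2.41 for LPS minus untreated (adjusted p = 0.00647) and 2.24 for LPS+USP7i minus LPS (adjusted p = 0.0175). Rps6ka5 (MSK1) differed by -1.81 with the inhibitor (adjusted p = 0.0221).

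Of 10 antagonists of the ERK pathway, LPS raised 4, Spred1 by 2.08, Rasa2 by 2.06, Errfi1 by 1.73, and Spry1, which was at least 1.98-fold higher (1.18-fold with normexp correction, where it did not pass). It lowered Spry3, at least 2.72-fold (1.70-fold with normexp correction), and Rasa1 (-1.03). With the inhibitor 1 was called higher, Spry3, which was not well above background in either of those groups, and 0 were lower in limma, with 2 lower at an unadjusted p under 0.05. Of 20 transcription factors that respond to MAP kinases, LPS raised Junb (2.07) and Creb1 (1.58) and lowered Egr2 (-1.69), Fos (-1.58), Fosl2 (-1.26), and Elk3 (-0.90). With the inhibitor 4 were higher and 0 lower in limma, and 10 were higher and 1 lower at an unadjusted p under 0.05. Fosl1, an AP-1 subunit induced by ERK, read 3.39 and 3.71 in untreated cells and 4.64 and 4.32 with LPS, none of them well above background, and 10.76 and 10.19 with LPS+USP7i. It was at least 59.3-fold higher than with LPS (adjusted p = 0.0104) and at least 94.8-fold higher than in untreated cells (adjusted p = 0.00454), bounds of 31.1-fold and 42.3-fold with the deposited log2 values and of 15.2-fold and 16.7-fold with normexp correction. Egr2 rose by 1.73 with the inhibitor (adjusted p = 0.0372), Fos by 1.08 (adjusted p = 0.0406), and Atf3 by 0.51 (adjusted p = 0.0410).

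In LPS+USP7i compared with untreated cells, the MAP3 kinases had 2 genes higher, among them Map3k8 (2.32), and 5 lower, among them Map3k1 (-1.83) and Map3k4 (-1.63). The kinases activated by MAP kinases had 3 higher, among them Rps6ka2 (1.67) and Mapkapk2 (1.38), and 1 lower, Rps6ka1 (-1.47). Of the other phosphatases, 3 were higher and 2 lower, Ptpn7 (-1.80) and Ppm1d (-0.91). Among the 10 MAP kinases, 0 were called in limma, with 0 higher and 3 lower at an unadjusted p under 0.05.

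**Figure D3:**
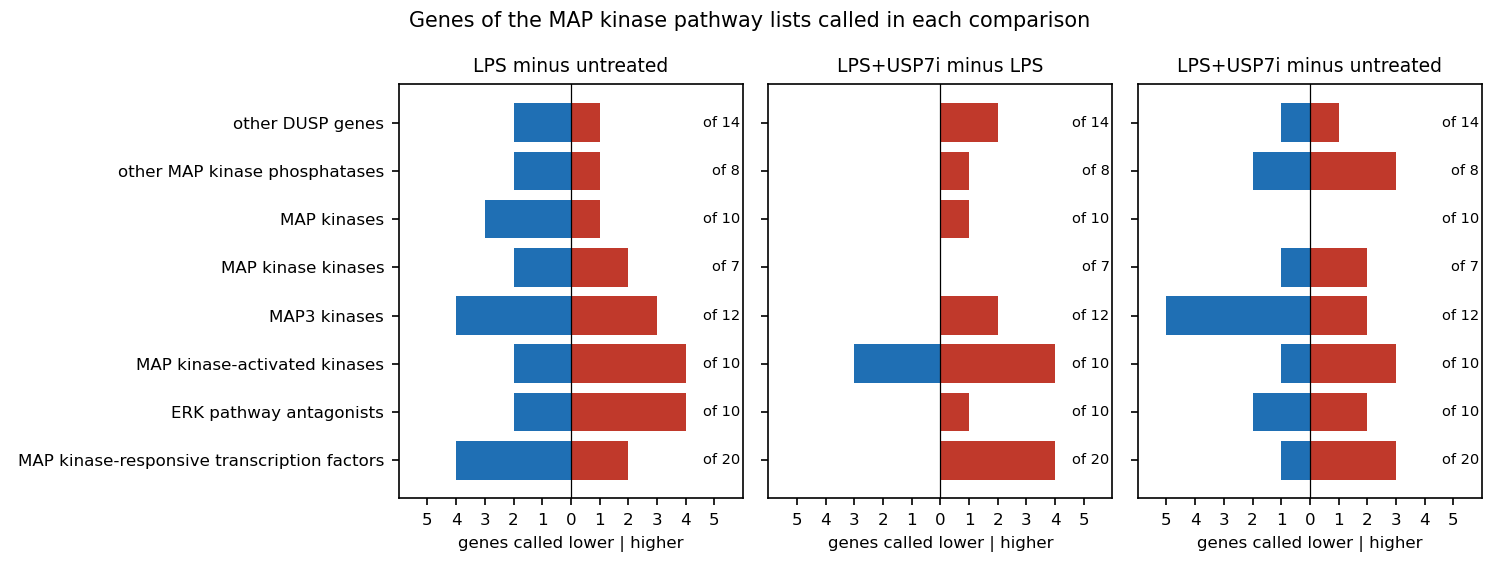
Number of genes called higher (red, to the right) and lower (blue, to the left) in each of the 8 MAP kinase pathway lists, with the number of genes on the array at the right, in the 3 comparisons. Between LPS+USP7i and LPS, 15 of 91 genes were called higher and 3 lower, and all 3 lower genes belong to the kinases activated by MAP kinases.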

How the data were processed

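Total RNA of 6 samples was labeled with Cy3 and measured on 1-color Agilent arrays. The authors deposited scanner files with spot intensity values, made with Agilent Feature Extraction 10.7.3.1 on genome build mm9, and a table of log2 values that the authors normalized between arrays with limma (quantile normalization, per the methods and the submitters' processing notes). The medians of the deposited log2 columns lie between 5.07 and 5.10, and their background correction is not given in the sources used here.

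The processed intensity was log2-transformed and quantile-normalized over noncontrol spots. Outlier spots by the scanner software's flag, between 119 and 172 per array, were dropped, and the remaining spots of each probe were averaged. Each DUSP probe has 1 spot. Names came from RefSeq (GRCm38.p6) by accession for 26762 probes, by symbol for 3819, and by synonym for 639, and from the files for 24461. The 3 groups entered 1 linear model (limma 3.58.1 under R 4.3.3, lmFit and eBayes, with 3 residual and 1.05 prior degrees of freedom), with Benjamini-Hochberg adjustment over 55680 probes and a threshold of 0.05. The fit was tested on simulated data. The alternatives were 75th percentile scaling, normexp with an offset of 50, the deposited log2 table, a fit without dim probes, fits restricted to 2 groups, a replicate block, fits without each single array, and the mean of all probes of a gene, of which the fits of 2 groups, with a block, and without an array were added for the pathway lists after the data had been seen.

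All members are named with every probe. Of each pathway list, the 3 genes with the largest absolute difference past the threshold and well above background on both arrays of a compared group could be named in each comparison, and 3 nearest genes per member well above background throughout. Other names were chosen after their values were seen. Members and lists were chosen with earlier results of these data known.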

Additional observations from a re-analysis of the deposited data

How the results depend on the processing

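For single DUSP probes, 409 of 504 values under an alternative kept their direction and their side of the threshold, 78 no longer passed, 13 newly passed, and 4 reversed. Only values that passed as reported could stop passing, so the 78 are not a share of all 504. The 409 include values that passed neither as reported nor under the alternative, and the 504 include repeated fits, as described below. The number of DUSP probes lower in LPS+USP7i than in untreated cells was 1 as reported, where 4086 of 55680 probes were lower. It was 2 with 75th percentile scaling (4605 of all probes), 3 with normexp (5223), and 3 with dim probes left out (5262 of 25084). With the deposited log2 table it was 0 (3020 of all probes), and in a fit of the 2 groups it was 0 (2690). With single arrays left out, Dusp6, the probe reported, was not called. Between LPS+USP7i and LPS, fits of the 2 groups called 0 higher and 0 lower, and with single arrays left out 0 to 4 were higher and 0 to 3 lower. Compared with untreated cells, 3 to 7 were higher with single arrays left out. Pathway list genes called numbered 33 with normexp and 30 with dim probes left out, against 18, for LPS+USP7i minus LPS, but 0 in a fit of the 2 groups (limma, 40 at an unadjusted p under 0.05) and 0 to 14 with single arrays left out. They numbered 50 with 75th percentile scaling, which called 35.0% of all gene names higher and 9.64% lower in place of 6.16% and 8.71%, against 29, for LPS+USP7i minus untreated, and 8 to 25 with single arrays left out, and for LPS minus untreated 20 to 37, against 39. For LPS+USP7i minus LPS, normexp called 8.28% of all gene names higher and 6.83% lower, in place of 5.52% and 4.27%. With dim probes left out, 15.1% and 12.9% of the 18328 names tested were called higher and lower, and the fit of the 2 groups called 0%. The list counts of 33, 30, and 0 thus moved in the same direction as the share of all names called. The list fits of 2 groups, with a block, and without an array were chosen after seeing the data. The reversed values are of Dusp8, which passed in no comparison: with single arrays left out, probe 3 ranged from -0.43 to 0.49 for LPS minus untreated and probe 1 from -0.50 to 0.65 for LPS+USP7i minus untreated. Dim probes left out means 25084 probes tested, and fits without an array or a group rest on fewer samples, and a fit without 1 array of the group not compared repeats the fit of the 2 groups. The cause of the other shifts was not tested. Signal near background limits Dusp5, Dusp8, Dusp10, Dusp14, and probe 2 of Dusp16.

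The labels do not say that a replicate number marks a shared experiment, and deviations of same-numbered arrays correlated at 0.468, 0.398, and 0.422. With a replicate block in the fit, the count of DUSP probes lower in LPS+USP7i than in untreated cells was 0, because Dusp6 had an adjusted p of 0.0793. Between LPS+USP7i and LPS, 4 probes were higher, without Dusp6 (adjusted p = 0.0758) and probe 1 of Dusp7 (0.0881), and 3 lower. The replicate block changed no other DUSP call, and 10 pathway list genes in place of 18 were called between LPS+USP7i and LPS.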
